A study of Homo sapiens with 6 samples.

Results

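The AP-1 family transcription factors were taken as the 10 genes FOS, FOSB, FOSL1, FOSL2, JUN, JUNB, JUND, ATF2, ATF3 and BATF3, chosen by name and matched to the Ensembl identifiers of the deposited table. They are 10 of 63677 listed genes, and all 10 were among the 21729 genes that were tested, each with over 10 counts summed across the samples. RNA came from UWB1.289 cells, a human ovarian carcinoma line that lacks functional BRCA1 and whose genotype the labels give as WT. The cells were kept for 24 h with 4 µM Olaparib, an inhibitor of poly(ADP-ribose) polymerases, or with DMSO as the vehicle, with 3 samples per group. The design text of the series gives 10 µM in place of 4 µM. All 6 samples are of a single cell line grown in dishes, collected by trypsinization and washing before lysis, and poly(A) RNA was sequenced.

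AP-1 is a pair of basic leucine zipper (bZIP) proteins that binds DNA as a dimer. JUN proteins can pair with themselves or with FOS proteins, whereas FOS proteins need a partner from another family. JUN and FOS are classical immediate early genes, transcribed within minutes of growth factor or stress signals, and their proteins are activated further by the MAP kinases JNK and ERK. ATF2, ATF3 and BATF3 belong to neighbouring bZIP families and form dimers with JUN proteins. The study inferred factor activities from the transcripts of their targets, and the comparison here addresses the transcripts of the factors themselves.

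The classical AP-1 element reads TGACTCA and the cyclic AMP response element TGACGTCA, and several family members carry such letters near their own start sites. The promoter windows, with 250 bases before and 50 after the start, came from RefSeq (GRCh38.p14) and were found for 7 of the 10 genes. These 7 genes had 8 promoter entries, and each distance is to the RefSeq start of its entry. That start can differ from the gene start in the annotation used for gene positions. For FOSL2 and ATF3 it lies well inside the annotated gene. FOSL1, ATF2 and BATF3 had no entry. Of 35116 promoters, 4.95% held TGACTCA, 1.85% TGACGTCA, 2.61% the variant TGACATCA and 24.6% the shorter core TGACG, which is also part of TGACGTCA (both strands searched). TGACATCA was found in JUN and in ATF3, TGACGTCA in JUND and TGACTCA in FOSL2, while the core was found in 6 of the 7 genes. The windows below show 1 match per gene on the strand of the gene, 2 for FOSL2, with the matched letters in capitals, so that the members that rose can be set beside those that did not.
JUN (chr1:58784096-58784125, minus strand): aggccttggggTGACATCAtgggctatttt
FOSL2, core (chr2:28392780-28392809, plus strand): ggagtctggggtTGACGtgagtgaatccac
FOSL2, whole element (chr2:28392851-28392880, plus strand): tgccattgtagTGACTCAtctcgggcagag
FOS (chr14:75278752-75278781, plus strand): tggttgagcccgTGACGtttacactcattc
FOSB (chr19:45467924-45467953, plus strand): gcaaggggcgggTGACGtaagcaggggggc
JUNB (chr19:12791337-12791366, plus strand): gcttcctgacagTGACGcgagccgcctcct
JUND (chr19:18281804-18281833, minus strand): ggccgcccccaTGACGTCAacccacaaggc
ATF3 (chr1:212565273-212565302, plus strand): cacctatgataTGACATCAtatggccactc

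The matches shown began 67 bases before the start of JUN and 64 before that of FOS. The match of FOSB and the core shown for FOSL2 began 60 and 66 bases before the start. The matches shown for JUNB, ATF3 and JUND lay farther away, at 137, 123 and 200 bases. Matches not shown above were a core of JUND on the other strand at 86 bases and a core of JUN at 123. FOSL2 had a further core on the other strand at 201 bases. The whole element of FOSL2 began 5 bases downstream of the start. Whether distance relates to the changes of the members was not tested. As longer context, the 250 bases before the JUN start (chr1:58784048-58784297, minus strand) are given with the JUN variant of the element in capitals.
JUN: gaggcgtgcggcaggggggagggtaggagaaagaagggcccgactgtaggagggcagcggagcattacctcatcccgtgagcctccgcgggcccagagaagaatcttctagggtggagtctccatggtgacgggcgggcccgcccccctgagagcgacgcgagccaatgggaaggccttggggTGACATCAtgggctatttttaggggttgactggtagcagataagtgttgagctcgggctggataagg
These letters are a description of the promoters, and binding was not measured.

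The libraries held 35360458 to 39640775 counts. Mitochondrial genes took 5.68% to 6.11% of a library. Replicates of a group differed by more than counting error, with chi-square over its degrees of freedom between 1.81 and 4.11, and DMSO replicate 1 was in the least similar pair. Of 10 epithelial markers on the list, 9 were tested. KRT7, KRT8, KRT18, EPCAM and PAX8 were abundant in every sample, whereas WT1, often found in this tumour type, had 8 counts in all. Levels of KRT19, CDH1, MUC1 and MUC16 are not given here. Of the markers for other cells, those that did not reach the count minimum were PECAM1, LUM, CD3E, COL3A1 and DCN. PECAM1 and LUM were at 0 counts and CD3E, COL3A1 and DCN had 6, 2 and 4 counts in total. The remaining 3 endothelial, 4 leukocyte and 3 fibroblast markers were tested, and the sums that follow come from them. The endothelial list summed to 1659 to 1706 normalized counts after Olaparib and 1688 to 1804 after DMSO, although its member VWF rose with the drug (log2 fold change 0.68, edgeR adjusted p = 0.0106). The leukocyte list summed to 124 to 143 normalized counts after Olaparib and 106 to 126 after DMSO, and the fibroblast list to 1645 to 1847 and 1714 to 1843, each with 0 genes past the test. Of the epithelial markers PAX8 passed, with a log2 fold change of 0.10 (edgeR adjusted p = 0.0399).

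FOSL2 and JUN rose after Olaparib, FOSL2 by 15.8% and JUN by 9.14%, and no member fell past the test. A gene passed at an adjusted p under 0.05, where p came from the quasi-likelihood test of edgeR and was adjusted by Benjamini-Hochberg over all genes. By that rule 2 of 10 members passed, both higher, against a background of 3.36% of all genes tested in either direction and 2.15% higher. The members were chosen with earlier results of these data known. None of the 10 also had a fold above 1.2, a condition that 1.21% of all genes met. The median log2 fold change was 0.0068 over the 10 members and -0.0042 over all genes, with 5 members above and 5 below 0. The groups of 3 samples did not overlap for the same 2 members, where 19.3% of all genes had groups that did not overlap. As the RNA came from whole dishes, more cells that express a gene and more of its RNA per cell cannot be told apart.

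**Figure D1:**
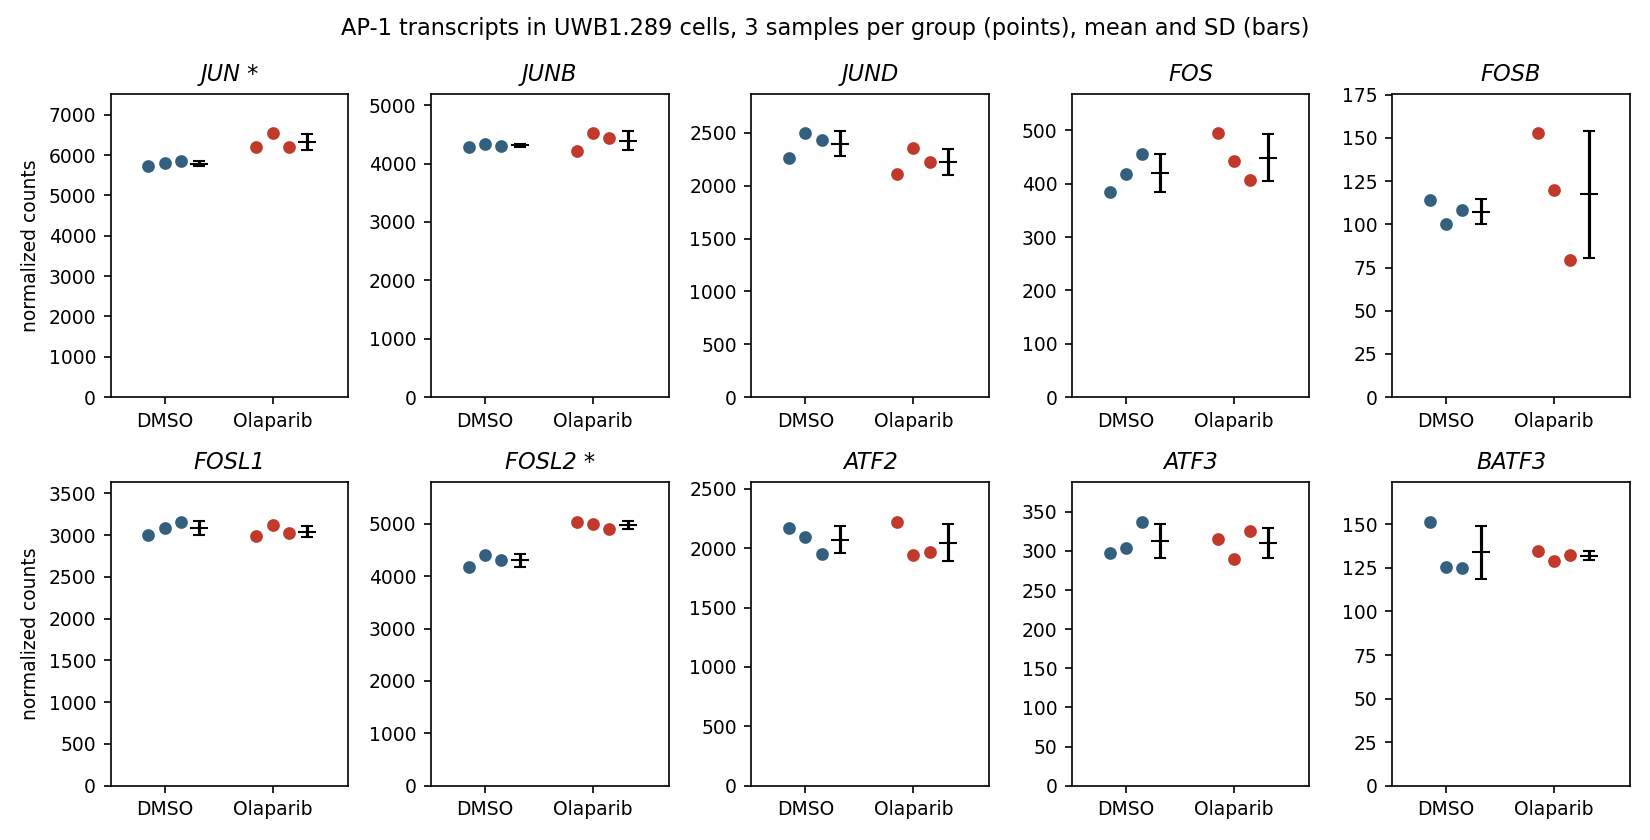
Normalized counts (y axis, from 0, each gene on its own scale) of the 10 AP-1 transcripts in 3 DMSO samples (blue) and 3 Olaparib samples (red). Points are samples, bars the mean and SD, and an asterisk marks an adjusted p under 0.05; only in the panels of JUN and FOSL2 do all red points lie above all blue ones.

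Among the FOS proteins, FOSL2 (Fra-2) is a partner of JUN that lacks the strong activation domain of FOS and persists after the early burst of FOS is over. FOSL2 (ENSG00000075426, chromosome 2, 28392448 to 28417317 on GRCh38, 4 exons in its main transcript) was at 5043, 4992 and 4906 normalized counts with Olaparib and at 4176, 4410 and 4315 with DMSO. The lowest treated sample was therefore above the highest control. Its means were 4980 ± 69.6 and 4300 ± 118 (SD, n = 3 each), for a log2 fold change of 0.21 (standard error, SE, 0.034, edgeR adjusted p = 0.000103). Leaving out 1 sample at a time gave values of 0.19 to 0.23, and the adjusted p stayed at or below 0.00193. No exon of FOSL2 overlaps another gene in the annotation used. FOSL2-AS1, the antisense RNA nearby, had 91 counts over the 6 samples.

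FOS, the founding member, gave no call. FOS (ENSG00000170345, chromosome 14, 75278826 to 75282230) was at 495, 443 and 408 normalized counts with Olaparib and at 385, 419 and 456 with DMSO. The highest and the lowest of the 6 values lay in opposite groups, but the other 4 were interleaved. Its log2 fold change was 0.093 with a 95% interval of -0.048 to 0.23 (edgeR adjusted p = 0.589), and it dropped to 0.018 without Olaparib replicate 1.

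FOSB, a close relative of FOS that is known to accumulate as a truncated form after repeated stimulation, was the rarest member. Its raw counts were 151, 117 and 80 in the Olaparib libraries and 109, 102 and 114 in the DMSO libraries, so the treated samples lay both above and below all controls. The coefficient of variation of its normalized counts was 31.3% in the Olaparib group and 6.52% in the DMSO group. The log2 fold change of FOSB was 0.13 (95% interval -0.17 to 0.43, edgeR adjusted p = 0.762), and it became -0.11 without Olaparib replicate 1 and 0.35 without Olaparib replicate 3. With these counts and this spread between samples, changes of FOSB within that interval could not be told apart.

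FOSL1 (Fra-1), which is often raised in invasive carcinoma cells, was at 2984, 3120 and 3020 normalized counts with Olaparib and at 2995, 3088 and 3161 with DMSO. The ranges covered each other almost fully. Its interval was narrow, from -0.096 to 0.058 on the log2 scale around -0.019 (edgeR adjusted p = 0.879).

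Among the JUN proteins, JUN is the strongest activator and the main substrate of JNK. The JUN gene (ENSG00000177606, chromosome 1, 58776845 to 58784048, 1 exon in its main transcript) was at 6205, 6543 and 6207 normalized counts with Olaparib and at 5716, 5801 and 5848 with DMSO. All treated samples were above all controls, by a small margin. The means were 6318 ± 195 and 5789 ± 66.9, for a log2 fold change of 0.13 (SE 0.032, edgeR adjusted p = 0.0176). The sign held with each sample left out, with values of 0.10 to 0.14, but the call did not: the adjusted p was 0.121 without Olaparib replicate 2 and 0.0535, 0.0865 and 0.0643 without DMSO replicates 1, 2 and 3. In those 4 fits FOSL2 was the only member that passed. Over the other tests, scalings and filters on the 6 samples, the adjusted p of JUN lay between 0.00674 and 0.0281.

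JUNB and JUND, which can restrain JUN when they take its place in the dimer, did not pass. JUNB was at 4209, 4522 and 4437 normalized counts with Olaparib and at 4289, 4341 and 4303 with DMSO, so the treated samples enclosed the controls (log2 fold change 0.026, edgeR adjusted p = 0.801). For JUNB, 14.2% of the exonic bases overlap HOOK2 on the opposite strand, and the strand setting of the counting is not given in the sources used here. HOOK2 itself had a log2 fold change of -0.058 (edgeR adjusted p = 0.443).

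JUND, a member that resting cells also express, was at 2107, 2354 and 2221 normalized counts with Olaparib and at 2262, 2497 and 2434 with DMSO. The treated values tended to be lower, with an overlap of 1 treated and 1 control sample. Its log2 fold change was -0.11 (95% interval -0.20 to -0.017 without adjustment, unadjusted p = 0.0216, edgeR adjusted p = 0.220). JUND was the third member, after FOSL2 and JUN, with an unadjusted p under 0.05.

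The 3 partners from neighbouring families gave values close to 0. ATF2, a substrate of p38 and JNK, had a log2 fold change of -0.019 (95% interval -0.12 to 0.078, adjusted p = 0.910). ATF3, which many cell stresses including DNA damage are known to induce, was at 316, 289 and 326 normalized counts with Olaparib and at 297, 304 and 338 with DMSO. Its groups overlapped throughout, and its interval ran from -0.16 to 0.14 around -0.013 (edgeR adjusted p = 0.961). BATF3, known for its part in dendritic cell development, was at 132 ± 2.69 normalized counts with Olaparib and at 134 ± 15.2 with DMSO (interval -0.24 to 0.21, adjusted p = 0.961). The sign of ATF2, ATF3 and BATF3 turned in at least 1 of the fits that left out a sample, and BATF, the relative of BATF3 on the wider list, had 0 counts.

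**Figure D2:**
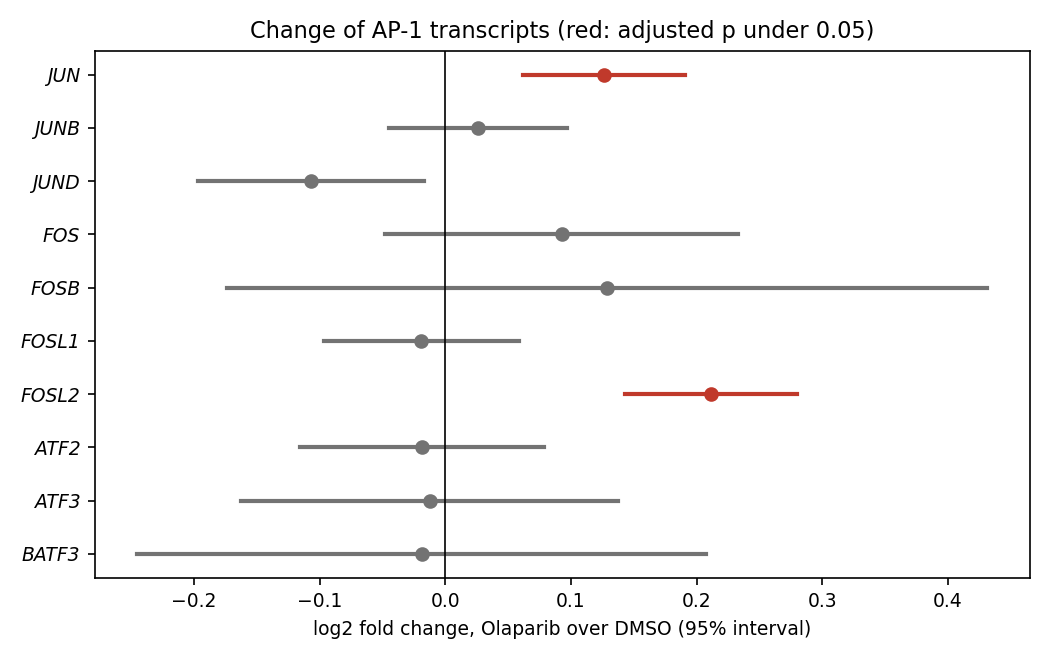
Log2 fold change, Olaparib over DMSO, of each AP-1 transcript (x axis) with its 95% interval from edgeR's quasi-likelihood fit to 3 samples per group, not adjusted for multiple testing. FOSL2 (0.21) and JUN (0.13), in red, had an adjusted p under 0.05; FOSB has the widest interval, from -0.17 to 0.43.

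Levels of different genes were compared per kb of exon, as normalized counts divided by the exonic length in GENCODE release 44. After DMSO the order was JUNB, FOSL1, JUN, JUND, FOSL2, ATF2, FOS, ATF3, BATF3 and FOSB. JUNB had 2356 ± 14.7 normalized counts per kb and FOSB 19.3 ± 1.26, a ratio of 122. FOSL1 (1633 ± 44.1) and JUN (1597 ± 18.5) overlapped in the DMSO samples, and every other pair of neighbours in the order was apart in all 3. After Olaparib the order was the same except that JUN, at 1743 ± 53.7 per kb, stood above FOSL1, at 1612 ± 37.5, without overlap. FOS, the member that gave its name to the group, was low in this line, at 132 ± 11.2 per kb after DMSO against 600 ± 16.4 for FOSL2. These levels depend on the exonic length assigned to each gene.

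**Figure D3:**
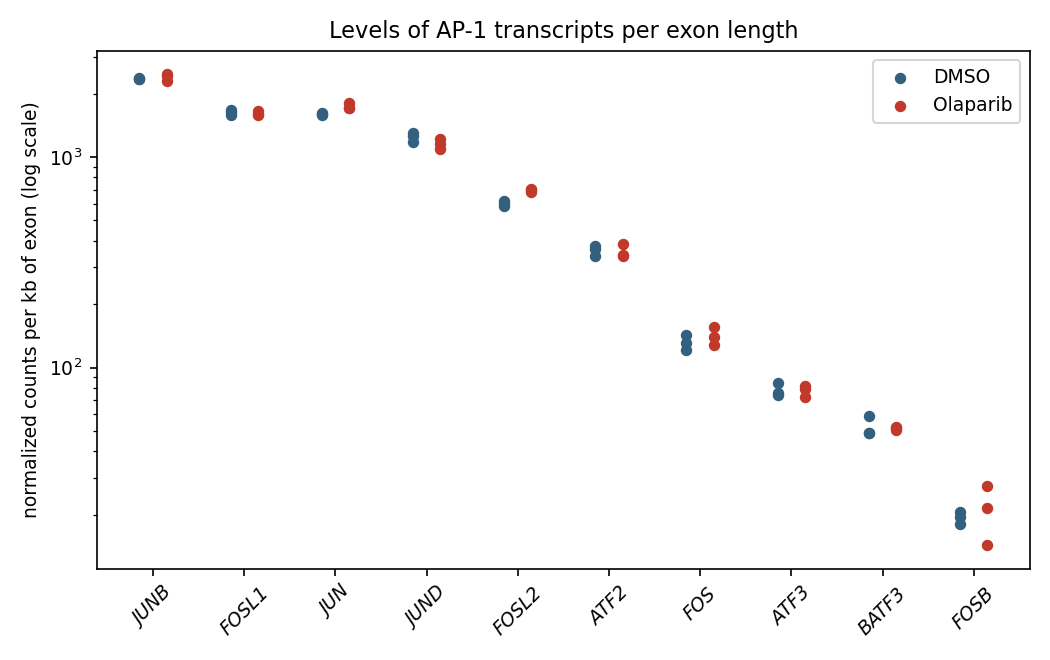
Levels of the 10 AP-1 transcripts as normalized counts per kb of exon (y axis, log scale) in 3 DMSO samples (blue) and 3 Olaparib samples (red), ordered by the DMSO mean. JUNB, FOSL1, JUN and JUND lie above 1000 in every sample, and FOSB lies between 14.3 and 27.5.

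The make-up of the family within a library shifted by a few percentage points. Of the summed level per kb of the FOS proteins, FOSL2 took 28.5%, 27.8% and 28.2% after Olaparib and 25.2%, 25.6% and 24.7% after DMSO. FOSL1 took 64.1% to 65.9% after Olaparib and 68.1% to 68.7% after DMSO, again without overlap. Shares have a fixed total, so a rise of FOSL2 alone lowers the share of FOSL1. The normalized counts of FOSL1 itself overlapped between the groups (log2 fold change -0.019, edgeR adjusted p = 0.879). In the JUN proteins, JUN took 32.9% ± 0.583 after Olaparib against 30.7% ± 0.309, and JUND 21.8% ± 0.401 against 23.9% ± 0.803. JUNB took 45.3% in both groups. The normalized counts of JUND also overlapped between the groups (log2 fold change -0.11, edgeR adjusted p = 0.220). How often shares of other genes were apart was not computed. The total per kb over all 10 members was 8251 ± 195 after Olaparib and 8071 ± 135 after DMSO, with overlapping samples.

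Ratios of raw counts within the same library need no scaling between libraries, and were computed for the 9 pairs inside the FOS and JUN proteins after the values had been seen. The groups were apart for 4 of the 9 pairs, against 25.4% of all pairs of genes with a mean of at least 100 counts. The 9 pairs share members and are not independent. FOSL2/FOSL1 was 1.69, 1.60 and 1.62 after Olaparib and 1.40, 1.43 and 1.37 after DMSO. JUN/JUND was 2.95, 2.78 and 2.80 after Olaparib and 2.53, 2.32 and 2.40 after DMSO, the widest gap in the JUN proteins. JUN/JUNB and JUNB/JUND were also apart, so that all 3 pairs of JUN proteins were. As written, each had the higher ratios after Olaparib, but that direction depends on which gene is the divisor. Any 1 of these 3 ratios follows from the other 2. In the FOS proteins the other 5 pairs overlapped. With 3 samples against 3, an exact permutation test cannot give a p below 0.1.

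**Figure D4:**
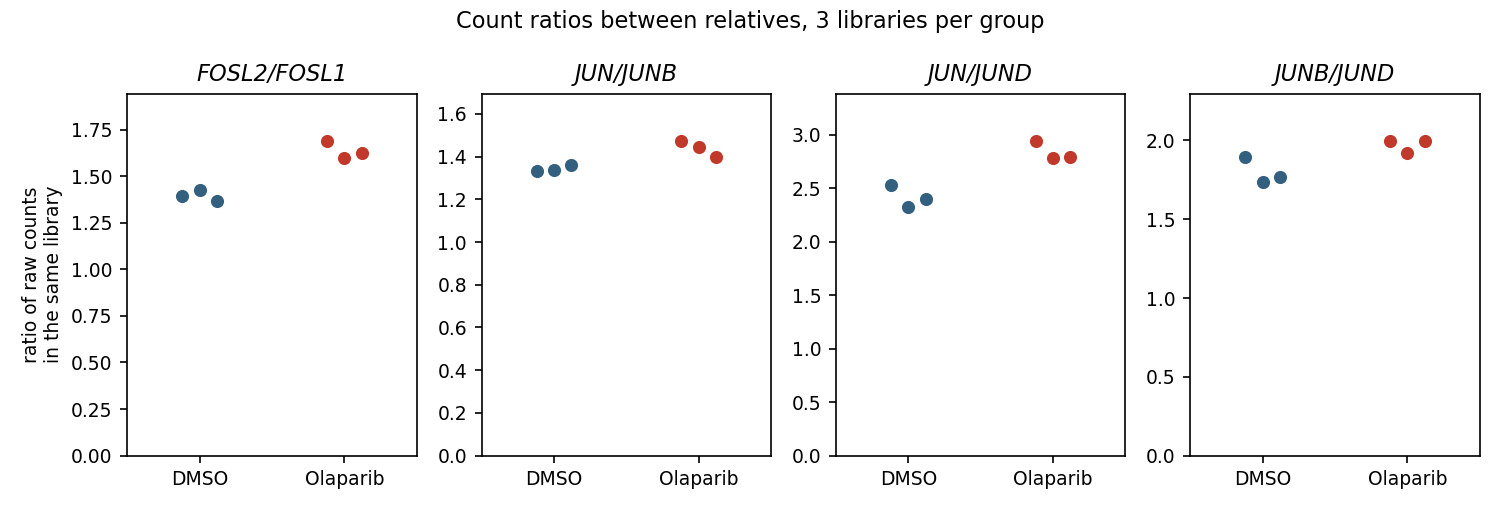
Ratio of raw counts of 2 AP-1 transcripts in the same library (y axis, from 0) for the 4 of 9 pairs whose groups did not overlap, with 3 DMSO libraries (blue) and 3 Olaparib libraries (red). FOSL2/FOSL1 lies between 1.60 and 1.69 after Olaparib and between 1.37 and 1.43 after DMSO.

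Over the 6 samples FOSL2 and JUN varied together, with a Pearson r of 0.92 between their log2 CPM values (counts per 1e6 counts of the library), the highest of the 45 pairs of members. FOS and FOSB had r = 0.66 and FOS and JUN r = 0.43. At the other end, JUNB and ATF2 had r = -0.78. These coefficients describe 6 points that share libraries and the contrast between the groups, and for FOSL2 and JUN both genes rose in it. Among 11997 genes with a mean of at least 100 counts, the 5 with the pattern most like that of JUN were GRINA, EFNB1, PCYOX1L, SRM and CSF1 (r of 0.991 to 0.995). EFNB1, an ephrin ligand, and SRM, spermidine synthase, passed the test themselves, with log2 fold changes of 0.14 and 0.12. For FOS the 5 were ZNF891, OSER1, E2F7, PARM1 and DERL1 (r of 0.980 to 0.998), and all 5 had an adjusted p of at least 0.723. With so many genes and 6 points, coefficients of this size are a ranking and no test.

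The other bZIP factors were almost all without a call. Of 39 genes on this list, 37 were tested, 1 passed (2.70%, against 3.36% of all genes) and the median log2 fold change was 0.0030. Of the 37, 0 also had a fold above 1.2. ATF4, the main effector of the integrated stress response and the most abundant of them per kb, was at 10660, 11100 and 11190 normalized counts with Olaparib and at 9819, 10200 and 10320 with DMSO. The treated samples were all above the controls (log2 fold change 0.12, SE 0.030, edgeR adjusted p = 0.0158), but the adjusted p rose to 0.0618 to 0.123 without Olaparib replicate 2 or 3 or DMSO replicate 1 or 2.

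The genes upstream of AP-1 are given by role, and a difference between roles was not tested. Of 7 dual specificity phosphatases on the list, which remove the activating phosphates from MAP kinases, 4 rose and 1 fell. Of 35 RAS proteins and kinases 1 passed, and of 6 genes for turnover or partner proteins (such as FBXW7, COP1 and MEN1) 0 passed. In the whole list 6 of 48 genes passed (12.5%, against 3.36% of all genes), and the median log2 fold change was 0.013. Of the 48, 3 also had a fold above 1.2, a condition that 1.21% of all genes met. The list was chosen with earlier results of these data known, and the share over all genes is not matched for level. DUSP1, a nuclear phosphatase of p38 and JNK and an immediate early gene itself, was at 1341, 1279 and 1234 normalized counts with Olaparib and at 1054, 1070 and 1054 with DMSO. The groups did not overlap (log2 fold change 0.28, SE 0.045, edgeR adjusted p = 0.000152). DUSP4, a nuclear phosphatase of ERK and JNK, rose by 0.28 (adjusted p = 3.49e-05), and DUSP5, which acts on ERK in the nucleus, by 0.17 (adjusted p = 0.00537). DUSP10, directed at JNK and p38, rose by 0.27 (adjusted p = 0.00928, and 0.107, 0.0652 and 0.157 without Olaparib replicate 3, DMSO replicate 2 and DMSO replicate 3). DUSP6, the cytoplasmic ERK phosphatase, fell by 0.14 on the log2 scale (edgeR adjusted p = 0.0185, and 0.0794 and 0.192 without DMSO replicates 2 and 3). For DUSP6, 28.6% of the exonic bases overlap another gene. MAP2K2 (MEK2), a kinase that activates ERK, was the kinase that passed (log2 fold change 0.16, adjusted p = 0.0135, and 0.133, 0.0514 and 0.0640 without Olaparib replicate 2, DMSO replicate 1 and DMSO replicate 2). NRAS, with the highest level per kb of the list after DMSO (after Olaparib DUSP5 was higher), had a log2 fold change of -0.035 (edgeR adjusted p = 0.721). Without DMSO replicate 2, 3 genes of this list passed.

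Among textbook AP-1 target genes, 6 rose and 1 fell out of 36 tested of 39 (19.4%, against 3.36% of all genes), with a median log2 fold change of 0.059. Of the 36 tested, 2 also had a fold above 1.2, a condition that 1.21% of all genes met. The list holds genes that other factors such as NF-kB and SMADs also control. It was chosen with earlier results of these data known, and the share over all genes is not matched for level. The integrin subunit gene ITGA2 rose by 0.22 (adjusted p = 0.000216), the epithelial membrane protein gene EMP1 by 0.21 (adjusted p = 9.79e-06) and EDN1, the endothelin precursor, by 0.20 (adjusted p = 0.000256). IL6, an inflammatory cytokine, had the largest rise among the genes that passed, at 0.48, from few counts (118 ± 14.6 against 84.2 ± 6.86 normalized counts). Its adjusted p of 0.0268 rose to 0.0656 to 0.144 without Olaparib replicate 1 or any DMSO replicate, and to 0.107 in DESeq2's Wald test. CD44, a hyaluronan receptor named here after its values were seen, rose by 0.13 (adjusted p = 0.0201). CXCL8, the chemokine IL-8, was the gene that fell, by 0.13 on the log2 scale (edgeR adjusted p = 0.0111, and 0.0983 and 0.0887 without Olaparib replicate 2 and DMSO replicate 3). MT2A, a metallothionein and the most abundant per kb, had a log2 fold change of -0.045 (edgeR adjusted p = 0.536), and the matrix metalloproteinase genes MMP3 and MMP13 did not reach the count minimum. Without DMSO replicate 3, 4 genes of this list passed.

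The immediate early genes that are induced together with FOS and JUN did not move one way. Of 30 genes 29 were tested, 4 rose and 1 fell (17.2%, against 3.36% of all genes), and the median log2 fold change was 0.039. Of the 29, 3 also had a fold above 1.2, a condition that 1.21% of all genes met. This list, too, was chosen with earlier results of these data known, and the share over all genes is not matched for level. The genes that rose were SOCS3 (0.35, adjusted p = 0.00777), DUSP1, RHOB (0.18, adjusted p = 0.00178) and IER5 (0.16, adjusted p = 0.0473). SOCS3, an inhibitor of JAK signaling, went to an adjusted p of 0.0541 without DMSO replicate 1, and IER5 was lost in 5 of the alternatives on all samples and in 5 of the 6 fits with a sample left out. EGR1, a zinc finger factor induced by the same serum response factor as FOS, fell by 1.07 on the log2 scale (edgeR adjusted p = 1.16e-07), so that FOS/EGR1, the ratio of raw counts in a library, was 4.22, 5.27 and 4.56 after Olaparib and 1.94, 2.12 and 2.13 after DMSO. CCN1, a matrix protein gene and the most abundant per kb, had a log2 fold change of -0.082 (edgeR adjusted p = 0.111). Without DMSO replicate 1, 3 genes of this list passed.

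**Figure D5:**
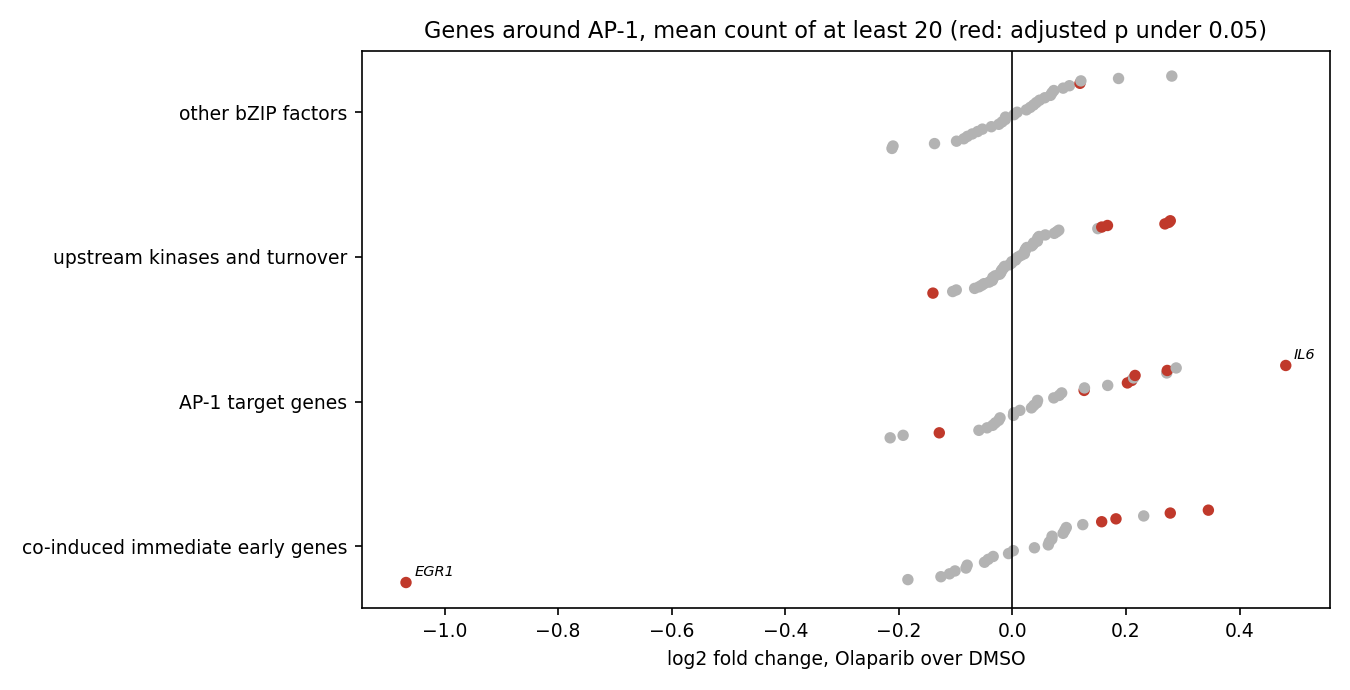
Log2 fold change, Olaparib over DMSO (x axis), of the genes with a mean of at least 20 counts on 4 lists around AP-1 (31, 47, 30 and 26 genes from top to bottom), each point a gene, spread vertically by rank. Red marks an adjusted p under 0.05; EGR1 lies at -1.07 and IL6 at 0.48, and the other red points lie between -0.14 and 0.35.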

How the data were processed

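RNA of 6 UWB1.289 samples was measured, 3 per group, and samples were assigned by their titles. According to the paper, the authors trimmed adapters with Trimmomatic, mapped to GRCh38 with STAR, marked duplicates with Picard and assigned reads with featureCounts. The deposited values are raw counts of reads per gene, not normalized. The strand setting and whether duplicates were removed are not given in the sources used here. Genes with more than 10 counts in total were kept, scaled by TMM and tested with edgeR 4.0.16 (quasi-likelihood test, R 4.3.3, Benjamini-Hochberg adjustment over 21729 genes, no replicate block). Standard errors are the log2 fold change over the square root of F. The paper's methods call the 3 replicates per condition independent, all of 1 line, so p-values measure the spread between these replicates of that line.

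Alternatives were DESeq2 1.42.0, limma 3.58.1 voom, other scalings and filters, a replicate block and leaving out each sample. Names, lengths and overlaps came from GENCODE release 44, which names 96.0% of tested identifiers; the authors' annotation may differ. The members and lists were chosen with earlier results of these data known. Named genes are the members, the genes of 4 lists past the test with a mean of at least 20 counts (at most 6 per list by size of change), each list's most abundant gene per kb (summed over both group means), and the 5 genes most like FOS and JUN. A gene of the target list that the rule names is not reported here, though the list's counts hold it. 4 marker lists (epithelial, leukocyte, endothelial and fibroblast) served to check the cells. Protein sequences were not used here.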

Additional observations from a re-analysis of the deposited data

How the results depend on the processing

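With 3 samples per group and depths of at least 35360458 counts, changes of the rarer members (FOSB, BATF3) remain poorly bounded. The 2 members passed under all 8 alternatives on the 6 samples, and 1 to 2 passed with a sample left out. The number of genes passing over the whole table was 730, between 398 and 870 with a sample left out (lowest without DMSO replicate 2, 401 without DMSO replicate 3, 439 without Olaparib replicate 3), and 1322 with the replicate number as a block. With that block, 2 other bZIP factors and 10 immediate early genes passed in place of 1 and 5. The cause was not tested. Deviations of same-numbered samples from their group means correlated at -0.0791, 0.105 and -0.104 over 14807 genes. Olaparib replicate 2 correlated best with its own number, and Olaparib replicate 1 did not. Olaparib replicate 3 correlated best with DMSO replicate 1 (0.226). With 3 samples per group these values are too few to decide whether the numbers pair samples. With a sample left out, 0 to 1 other bZIP factors, 3 to 6 upstream genes, 4 to 7 AP-1 targets and 3 to 7 immediate early genes passed. The log2 fold change turned sign with a sample left out for FOSB (-0.11 to 0.35), ATF2 (-0.082 to 0.018), ATF3 (-0.051 to 0.045), BATF3 (-0.068 to 0.077) and NRAS (-0.072 to 0.0021). No scaling moved the median of all genes by as much as 0.02. CCN1 passed without a count filter (adjusted p = 0.0392 from edgeR), with the block (0.0241) and without Olaparib replicate 1 (0.0132).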
